A study of Mus musculus with 2931 samples.

Results

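Imprinted growth genes are genes transcribed mainly or only from the copy inherited from 1 parent, and many of them set the size of the fetus and of its organs. The 10 genes described here are Mest, Ndn, Peg3, Plagl1, Igf2, H19, Dlk1, Meg3, Cdkn1c and Grb10. They were taken by symbol from the 18072 gene symbols of the count table, and all 10 were present. Mest and Ndn were chosen on their lower values in Car4- capillaries at P21 than at P7 in these cells, so the P21 to P7 comparison in Car4- capillaries is given below as a description only.

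The genes act on growth in opposite directions. Igf2 encodes a fetal growth factor that is made from the paternal copy, and H19, its neighbour, is a maternally transcribed long RNA that carries a microRNA. Mest (a predicted hydrolase), Peg3 (a zinc finger protein), Ndn (necdin, a growth suppressor of neurons), Plagl1 (a zinc finger transcription factor) and Dlk1 (a transmembrane Notch-related protein) are made from the paternal copy, while Meg3 is a maternal long RNA of the Dlk1 locus. Cdkn1c (p57, an inhibitor of cyclin-dependent kinases) is maternal and slows the cell cycle, and Grb10, an adaptor that damps insulin and IGF receptor signalling, is maternal in most tissues outside the brain. In many organs of the mouse these genes are high before birth and are switched down as growth slows after birth.

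Reads were counted in 2931 single cells labelled endothelial (EC, the lining of blood and lymph vessels), which were sorted by flow cytometry from distal mouse lung. Most came from a sort gate on CD31, a surface protein of endothelium (2694 cells). The labels place 224 cells in a mesench gate and 13 in a CD45 gate, and cells of all gates were pooled. Mice kept in normal air were taken at E18.5 (embryonic day), P1, P7 or P21 (postnatal days), and the last group was taken at P7 under hyperoxia, raised oxygen in the breathed air. Each of the 5 groups had 1 female and 1 male mouse name, and a name may stand for 1 animal or for a pool, which the labels do not say. Neither strain, genotype nor the oxygen level is given in the labels. A value written with ± is the mean of the 2 mice and their SD (n = 2), and pairs of values give the female mouse first. Values are CPM, the reads of a gene per 1000000 reads summed over the cells of a class in 1 mouse, and CPM per kb of exon where genes are set beside each other.

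In the annotation GENCODE M21 of the mouse build GRCm38, the imprinted cluster on chromosome 7 held H19 (7:142575529-142578143), Igf2 (7:142650766-142666816) and Cdkn1c (7:143458339-143461050), all on the minus strand. Ndn (7:62346569-62350262, plus strand) and Peg3 (7:6703892-6730431, minus strand) lie elsewhere on that chromosome. Mest is at 6:30723547-30748465, Plagl1 at 10:13060504-13131694, Dlk1 at 12:109452823-109463336 and Meg3 at 12:109541001-109571726, all on the plus strand, and Grb10 is at 11:11930508-12038683 on the minus strand. H19 and Meg3 are annotated as long noncoding RNAs and the other 8 genes as protein coding. Exons of Mest overlap those of Copg2, and exons of Igf2 those of Igf2os, on the opposite strand. Libraries cut with Tn5 do not mark the strand, so reads from these overlaps cannot be told apart. The counts do not separate the copies from each parent, so imprinting itself was not measured.

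The stretches just upstream of the starts of Mest, Grb10 and Peg3 are shown because these 3 of the 10 genes had the most reads and differed in their course with age. They are from RefSeq on GRCm38.p6, run 5′ to 3′ on the strand of the gene, and exclude every annotated exon. Capitals mark CG dinucleotides, the sites of DNA methylation that can differ between the parental copies. RefSeq windows were found for 8 of the 10 genes, with 15 starts; Cdkn1c and H19 had no entry.
Mest, chr6:30737800-30738049, plus strand: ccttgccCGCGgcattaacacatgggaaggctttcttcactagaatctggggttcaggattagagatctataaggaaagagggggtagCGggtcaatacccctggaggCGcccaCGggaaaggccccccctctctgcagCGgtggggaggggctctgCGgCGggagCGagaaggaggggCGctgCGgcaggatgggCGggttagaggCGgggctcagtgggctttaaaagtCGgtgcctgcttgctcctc
Grb10, chr11:12037421-12037670, minus strand: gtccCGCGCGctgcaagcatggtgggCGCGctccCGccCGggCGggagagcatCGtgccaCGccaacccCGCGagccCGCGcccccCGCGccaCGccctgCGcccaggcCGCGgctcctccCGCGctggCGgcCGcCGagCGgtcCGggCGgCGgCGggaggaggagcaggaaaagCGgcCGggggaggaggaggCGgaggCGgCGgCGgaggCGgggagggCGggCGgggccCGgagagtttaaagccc
Peg3, chr7:6730432-6730577, minus strand: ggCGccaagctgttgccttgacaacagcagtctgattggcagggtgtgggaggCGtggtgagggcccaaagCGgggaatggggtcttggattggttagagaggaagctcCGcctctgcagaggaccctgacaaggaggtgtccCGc
The Mest window of 250 bases held 14 CG, the Grb10 window of 250 bases 40 CG and the Peg3 stretch of 146 bases 5 CG. Where a gene had more than 1 start, the start with the most CG was printed. The window of the other Grb10 start held 8 CG, and a stretch of 198 bases at another Mest start 4 CG. The median over 32851 RefSeq windows of 250 bases was 6 CG. Of these windows 1.31% held at least as many as the printed Grb10 window, which was picked for its CG count. For the other Grb10 start the share was 43.0%. Methylation was not measured in these cells.

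H19 and Mest also carry microRNAs, which counts of this kind do not measure. Their mature forms are printed because they are the small products of the 2 transcripts with the highest level per kb below, with the seed (bases 2 to 8) in capitals.
mmu-miR-675-5p, in H19: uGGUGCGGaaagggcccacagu
mmu-miR-675-3p, in H19: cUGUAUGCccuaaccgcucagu
mmu-miR-335-5p, in Mest: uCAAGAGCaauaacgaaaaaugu
mmu-miR-335-3p, in Mest: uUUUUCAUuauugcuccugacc
The seeds of these 4 differ from each other.

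The median depth was 621406 reads per cell and the lowest 42095, and the male P7 mouse in normal air was the shallowest with a median of 188610 reads per cell. The authors' subtype labels were used as they stand, with Early and Late Car4- capillaries counted as 1 class. Car4+ and lymphatic markers were high where the labels place them: 4 Car4+ markers summed to 6947 to 14570 CPM in Car4+ capillaries and to 339 to 955 CPM in Car4- capillaries, and 5 lymphatic markers summed to 6138 to 10554 CPM in lymphatic EC and to 8.60 to 161 CPM in venous EC. In other classes the highest sum of a mouse was 3059 CPM for Car4+ markers (arterial EC I) and 618 CPM for lymphatic markers (Car4+ capillaries). The 4 venous markers summed to 1776 to 8109 CPM in venous EC and to 337 to 2577 CPM in arterial EC I, so these ranges overlapped. The 5 arterial markers summed to 1268 to 3161 CPM in arterial EC I and to at most 896 CPM in Car4- capillaries. The 4 Car4- markers did not set Car4- capillaries apart from all other classes. Their median sum was 5268 CPM in Car4- capillaries, 5542 CPM in venous EC, 5989 CPM in arterial EC I and 422 CPM in Car4+ capillaries. The 4 proliferative markers had a median sum of 4920 CPM in proliferative EC and 915 CPM in lymphatic EC. The 10 mesenchymal markers, which were measured because several of these genes are high in lung mesenchyme, summed to 0 to 46.9 CPM in Car4- capillaries, to 0.920 to 28.1 CPM in Car4+ capillaries, to 0.810 to 116 CPM in venous EC and to 3304 CPM in the 5 lymphatic cells of the male P7 mouse. The highest sum of a mouse was 907 CPM in proliferative EC (median 13.3 CPM) and 554 CPM in arterial EC II (median 76.5 CPM). The labels come with map coordinates made from the expression of these same cells, so differences between subtypes are given as levels, with no test.

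Over all cells, Mest was the most abundant of the 10 genes by a wide margin. It had 187 CPM per kb and reads in 73.3% of cells, and ranked 137th of all symbols by reads. H19 followed with 50.8 CPM per kb, although reads of it were found in only 11.7% of cells. Cdkn1c, Ndn, Peg3, Grb10 and Igf2 lay between 17.8 and 28.5 CPM per kb, and Plagl1 was at 6.13 CPM per kb. Peg3 and Grb10 had reads in 55.4% and 57.7% of cells and Igf2 in 14.1%, so similar totals per kb came from different shares of cells. Dlk1 and Meg3 were close to 0, with 0.00343 and 0.0142 CPM per kb. Dlk1 had 40 reads in 32 cells in the whole table, and Meg3 530 reads in 170 cells, with 48.9% of its reads in venous EC.

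Mest was found in every subtype, and after birth its highest mean level was in Car4+ capillaries, the large thin cells that face the airspaces. At P1 it stood at 1442 CPM in the female and 890 CPM in the male mouse in Car4+ capillaries, at 1290 and 524 CPM in venous EC, at 877 and 534 CPM in proliferative EC and at 886 and 494 CPM in Car4- capillaries. These ranges overlapped between neighbours in the order. Lymphatic EC (332 ± 59.0 CPM) and arterial EC I (280 ± 85.3 CPM) were below all 4 at P1. Within the same mouse, Mest was higher in Car4+ than in Car4- capillaries in 8 of 8 mice, by a median of 1.01 on the log2(CPM + 1) scale. Arterial EC II were below arterial EC I in 3 of 3 mice with at least 5 cells of both.

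Peg3, a zinc finger protein made from the paternal copy, had another order. At P1 it stood at 538 and 664 CPM in Car4- capillaries, at 437 and 354 CPM in proliferative EC, at 404 and 320 CPM in venous EC and at 48.6 and 165 CPM in Car4+ capillaries. Car4- capillaries did not overlap with the next class. Within a mouse, Peg3 was higher in Car4- than in Car4+ capillaries in 8 of 8 mice, by a median of 3.10 log2 units, which is the reverse of Mest. Early Car4- capillaries held 28.7% of the cells and 59.4% of all Peg3 reads. At E18.5, where no cell was labelled Car4+, nonproliferative embryonic EC had 364 and 213 CPM. The 13 cells of the female E18.5 mouse that were already labelled Car4- had 6.92 CPM of Peg3 and 981 CPM of Mest. At P1 Ndn varied less between subtypes, with class means between 71.3 and 128 CPM in the 6 classes with both mice. Its highest mean was in Car4- capillaries (132 and 124 CPM). Within a mouse, Ndn was higher in Car4- than in Car4+ capillaries in 7 of 8 mice, by a median of 1.45 log2 units. At P7 in normal air it stood at 137 ± 49.3 CPM in venous EC, 131 ± 16.1 CPM in Car4- and 34.9 ± 1.60 CPM in Car4+ capillaries.

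Plagl1, a transcription factor of the same imprinted network, was concentrated in venous EC. Its venous level was 411 and 649 CPM in E18.5 mice, 423 and 263 CPM in P1 mice and 284 and 131 CPM in P7 mice. In Car4- capillaries it was 36.0 and 30.8 CPM at P1. Venous EC were above Car4- capillaries in 8 of 8 mice, above proliferative EC in 8 of 8, above Car4+ capillaries and arterial EC I in 7 of 7 each and above lymphatic EC in 6 of 6. The median distance to Car4- capillaries was 3.38 log2 units. Venous EC were 6.93% of the cells and held 48.8% of the Plagl1 reads. After thinning each cell to 50000 reads, a Plagl1 read was found in 90.0% of venous cells at P1 and in 20.1% of Car4- cells, as means over the mice.

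**Figure D1:**
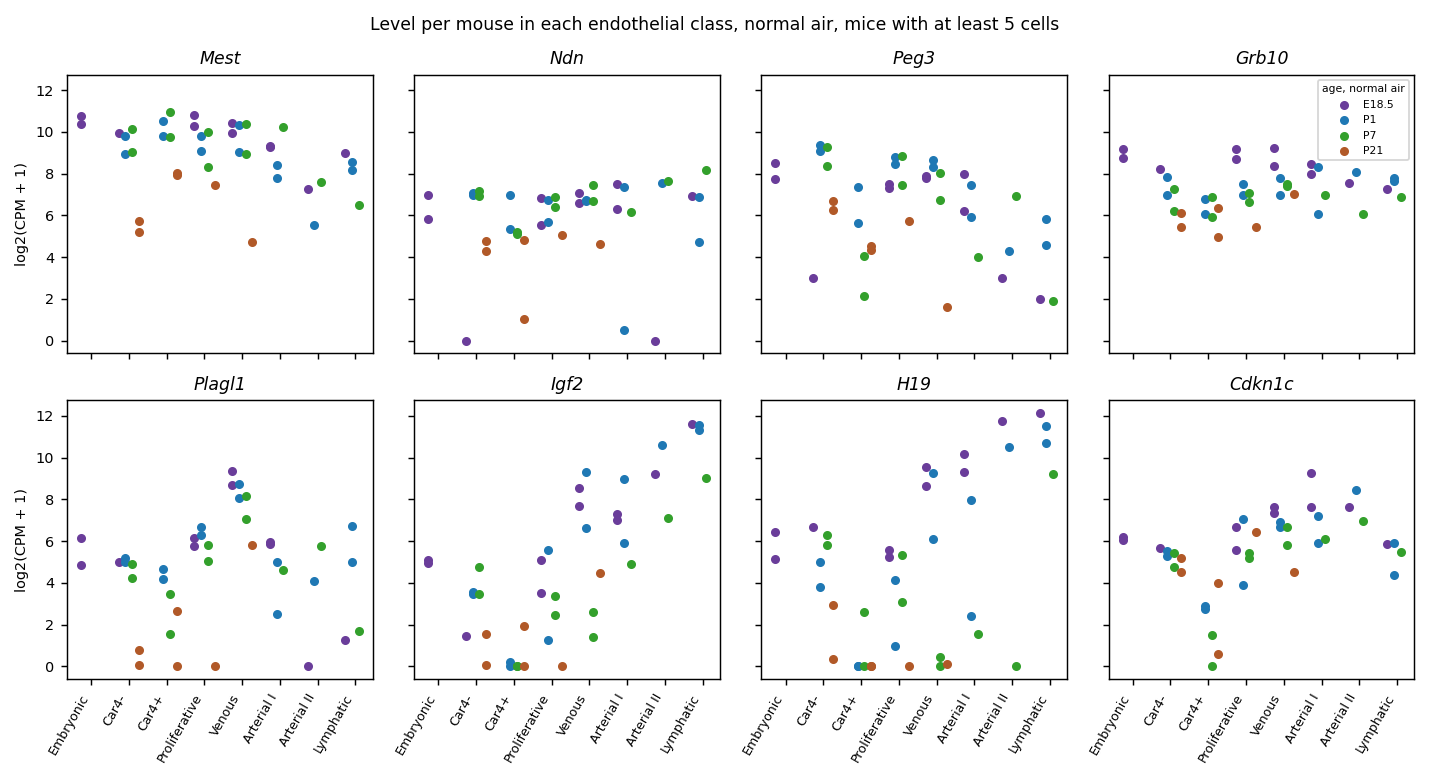
Level of 8 genes in 8 endothelial classes, one point per mouse with at least 5 cells of the class, on a log2(CPM + 1) scale and coloured by age in normal air. Plagl1 is highest in venous EC, Igf2 and H19 are highest in lymphatic EC with arterial EC II next at P1 and E18.5 for Igf2, and Cdkn1c is lower in Car4+ than in Car4- capillaries of each mouse.

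Igf2 and H19, neighbours that share enhancers, were both concentrated in rare subtypes. Lymphatic EC were 2.80% of the cells and held 61.2% of the Igf2 and 50.4% of the H19 reads. Igf2 in lymphatic EC stood at 3244 CPM (2 cells) and 3132 CPM (10 cells) in E18.5 mice, at 2984 CPM (26 cells) and 2525 CPM (13 cells) in P1 mice and at 152 CPM (1 cell) and 512 CPM (5 cells) in P7 mice. H19 in the same cells stood at 3324 and 4498 CPM in E18.5 mice, at 1639 and 2903 CPM in P1 mice and at 550 and 594 CPM in P7 mice. The few P7 and P21 lymphatic cells limit these levels. At P21, 3 and 2 cells gave 627 and 0 CPM of Igf2 and no H19 read. Under hyperoxia at P7, 14 and 6 cells gave 263 and 529 CPM of Igf2 and 627 and 1606 CPM of H19. In the male P7 mouse 1 cell gave 79.3% of the Igf2 and 83.8% of the H19 reads of lymphatic EC. The lymphatic cells of that mouse also had the mesenchymal marker sum of 3304 CPM. The part of other cell types in the level was not tested.

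Igf2 was lower in the other classes. At P1 it was 1867 CPM (4 cells) and 1551 CPM (9 cells) in arterial EC II, 641 and 96.7 CPM in venous EC, 59.0 and 510 CPM in arterial EC I, and 10.1 and 10.7 CPM in Car4- capillaries. In Car4+ capillaries the P1 mice had 0.143 and 0 CPM. Lymphatic EC were above arterial EC II in 4 of 4 mice with at least 5 cells of both, by a median of 2.14 log2 units, and above venous EC in 6 of 6 by 4.57. The arterial EC I and venous ranges overlapped.

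Counted by cell, Igf2 and H19 were both present in most lymphatic EC. At P1, 38 of 39 lymphatic cells (97.4%, 95% Clopper-Pearson interval 86.5 to 99.9%) had at least 10 CPM of Igf2, 35 had H19 and 35 had both. All 12 lymphatic cells of E18.5 had both. Among 67 venous cells at P1, 33 had Igf2 and 13 had H19, and all 13 H19 cells also had Igf2. In arterial EC I at P1 it was 14 and 3 of 25 cells, and all 3 had both. Car4+ capillaries had 0 of 76 cells with either gene at P1, which by the limit of 3 counts allows a share of up to 3.95% (upper Clopper-Pearson bound 4.74%). The interval and the limit describe counting error alone, over cells pooled from both mice of a group. They treat these cells as independent, so they leave out the spread between mice and between sequencing runs. PCR copies of a molecule are counted as separate reads in the CPM of a cell.

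**Figure D2:**
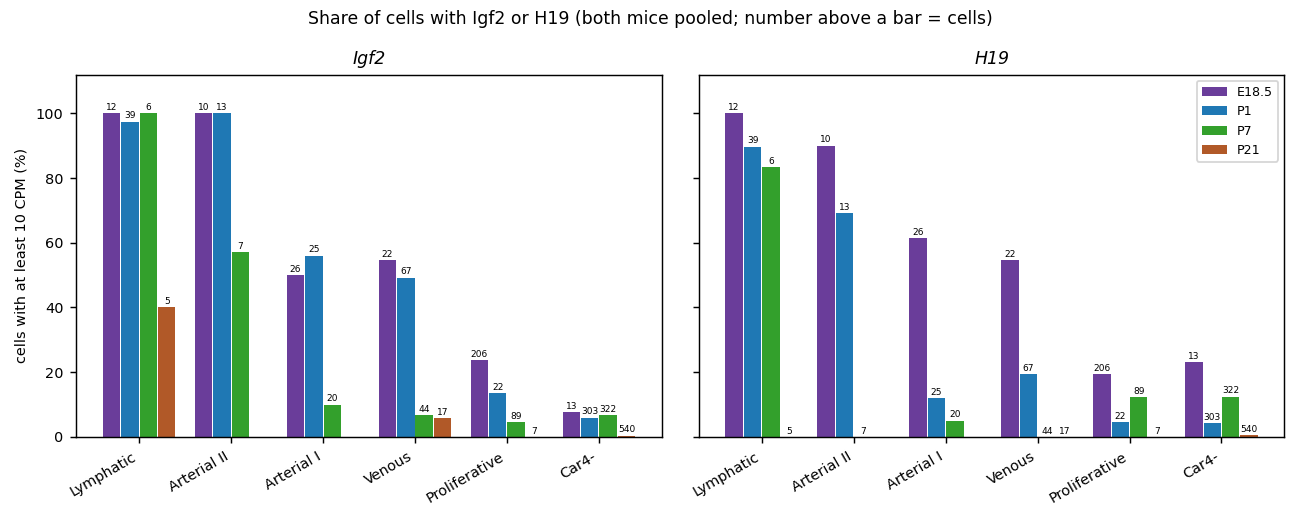
Share of cells with at least 10 CPM of Igf2 (left) or H19 (right) by endothelial class and age in normal air, with both mice pooled and the number of cells above each bar. All 12 lymphatic cells of E18.5 and 38 of the 39 of P1 had Igf2, against 18 of 303 Car4- cells of P1.

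Cdkn1c (p57) was high in arterial and venous EC and low in Car4+ capillaries. Arterial EC I had 614 and 199 CPM before birth and 144 and 59.6 CPM at P1, and venous EC 121 and 102 CPM at P1. Arterial EC II had 267 CPM (4 cells) and 201 CPM (6 cells) before birth and 338 and 350 CPM at P1 (4 and 9 cells), and were above arterial EC I in 3 of 3 mice with at least 5 cells of both; the 4 cells of the female E18.5 mouse were below. Car4- capillaries had 37.7 and 45.3 CPM and Car4+ capillaries 6.53 and 5.82 CPM at P1. Within a mouse Cdkn1c was higher in Car4- than in Car4+ capillaries in 8 of 8 mice, by a median of 3.01 log2 units, and higher in arterial EC I than in Car4- capillaries in 6 of 6. In proliferative EC, the cycling cells, it was not the lowest: they had 14.2 and 133 CPM at P1, and were above Car4- capillaries in 6 of 8 mice.

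Grb10 varied little between the classes other than Car4+ capillaries at P1. At P1 its class means lay between 151 and 211 CPM in 5 classes whose ranges overlapped from 1 to the next, and Car4+ capillaries were lower at 110 and 66.4 CPM. At E18.5 it was 580 and 425 CPM in embryonic EC, 585 and 417 CPM in proliferative EC and 594 and 329 CPM in venous EC.

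The course with age was tested on reads summed per mouse and class with edgeR's quasi-likelihood test, and a gene was called at a Benjamini-Hochberg adjusted p under 0.05 over all genes tested in the class. With 2 mice per group few genes of any kind were called. None of the 10 genes was called in any of the other 13 comparisons. In 2 of these, P7 against P1 and hyperoxia at P7 in Car4- capillaries, the P7 values are the same ones on which Mest and Ndn were chosen, so for these genes they are not independent of the choice. In the other 13 comparisons, edgeR called 0 to 0.494% of all genes. DESeq2, run as an alternative, called from 75 to 692 genes per comparison, so its calls of members stand beside a larger background. Cells of the CD31 gate (CD31 is a surface protein of endothelium) came from 1 sequencing run in the female E18.5, P1 and P21 mice and from another in the male E18.5, P7, P21 and hyperoxia mice. The CD31-gate cells of the other 3 mice had a run each. Pairs within a run are given where they exist.

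Around birth, nonproliferative embryonic EC at E18.5 were set against Car4- capillaries at P1. Age and subtype label differ together in this comparison and cannot be told apart. Grb10, which damps growth factor signalling, and Mest were higher in the embryonic cells. Peg3 was higher in the P1 cells, and 0 members passed the threshold. Grb10 was at 580 and 425 CPM before and at 123 and 225 CPM after birth, 1.39 log2 units higher in the embryonic cells (SE 0.50, edgeR adjusted p = 0.392). Mest was at 1741 and 1325 CPM before and at 886 and 494 CPM after, 1.10 higher (SE 0.47, adjusted p = 0.490). Peg3 lay the other way, with 364 and 213 CPM before and 538 and 664 CPM after, a log2 difference of -1.18 (SE 0.42, adjusted p = 0.392). Of 9 members tested 0 were called and 3 (these genes) had an unadjusted p under 0.05, where 0.494% and 9.42% of all 14967 genes did, and DESeq2 also called 0 members. The mice did not overlap for 7 of the 9 members, these 3 among them, and for 34.6% of all genes. In the female pair of 1 sequencing run the same directions were seen, with Grb10 at 580 against 126 CPM, Mest at 1741 against 905 CPM and Peg3 at 364 against 546 CPM. The 13 cells of that E18.5 mouse already labelled Car4- had 981 CPM of Mest, 299 CPM of Grb10 and 6.92 CPM of Peg3. The size of each difference thus depended on the label taken for E18.5. Igf2 (32.8 and 30.1 CPM against 10.1 and 10.7 CPM) and H19 (84.9 and 34.7 against 31.0 and 12.9 CPM) also did not overlap but had unadjusted p values of 0.221 and 0.151.

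**Figure D3:**
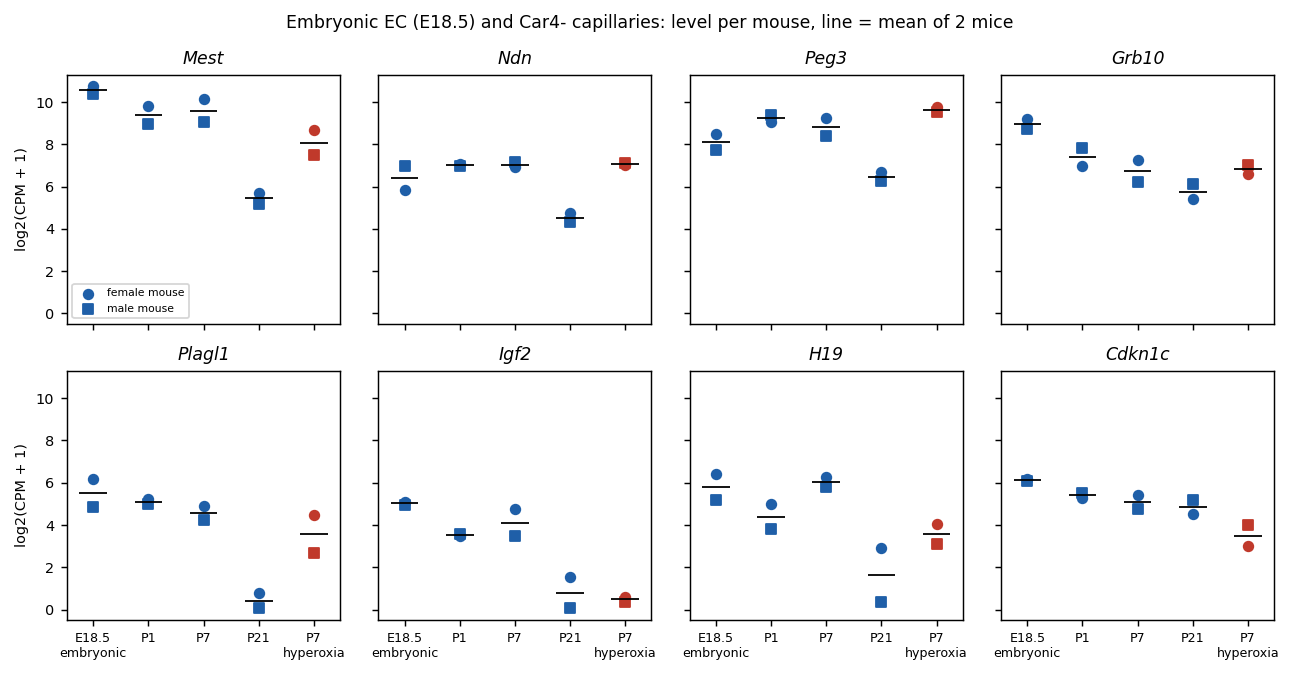
Level of 8 genes in embryonic EC at E18.5 and in Car4- capillaries at P1, P7, P21 and P7 hyperoxia, one point per mouse on a log2(CPM + 1) scale, with the mean of 2 mice as a line. For Mest, Ndn, Peg3, Plagl1, Igf2, H19 and Grb10 both P21 mice lie below both P7 mice, whereas Cdkn1c overlaps.

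In the first week Car4- capillaries had similar levels of Mest and Ndn at both ages, while H19 was higher at P7 without passing the test. Mest was 886 and 494 CPM at P1 and 1118 and 526 CPM at P7, and Ndn 132 and 124 CPM at P1 and 119 and 142 CPM at P7. H19 was 31.0 and 12.9 CPM at P1 and 77.4 and 54.6 CPM at P7, with no overlap and a log2 difference of 1.55 (SE 0.97, edgeR adjusted p = 0.555). Its cells with at least 10 CPM were 13 of 303 at P1 and 40 of 322 at P7. Of the 9 members tested, 0 were called and 0 had an unadjusted p under 0.05, against 0% and 11.3% of 14660 genes, and DESeq2 called 0. The mice did not overlap for 2 of 9 members (H19 and Plagl1) and for 40.2% of all genes. No CD31-gate cells of P1 and P7 mice shared a sequencing run, so run and age cannot be told apart in these cells.

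Between P7 and P21 most of the members were far lower in Car4- capillaries, the contrast on which Mest and Ndn were chosen, so the values are a description. Mest was 1118 and 526 CPM at P7 and 51.5 and 35.5 CPM at P21. Ndn was 119 and 142 CPM at P7 and 26 and 18.7 CPM at P21. Peg3 was 609 and 332 CPM at P7 and 102 and 74.8 CPM at P21. In these 3 abundant genes every P21 mouse was below every P7 mouse. The less abundant members had the same order. Plagl1 was 29.2 and 17.9 CPM at P7 and 0.733 and 0.0405 CPM at P21. Igf2 was 26.2 and 10 CPM at P7 and 1.92 and 0.0405 CPM at P21, and H19 77.4 and 54.6 CPM at P7 and 6.56 and 0.292 CPM at P21. Grb10 (154 and 73.7 CPM at P7, 41.9 and 68.1 CPM at P21) was also without overlap, by a small margin. Cdkn1c, the cell cycle inhibitor, was the exception with 42.4 and 26 CPM at P7 and 21.6 and 35.5 CPM at P21, and the groups overlapped. The fit called 3 of the 9 members (Mest, Ndn and Peg3) in this comparison, in which 0.266% of 14660 genes were called. It called 0 without the female P7 or the male P21 mouse and 1 without the male P7 mouse. An unadjusted p under 0.05 was reached by 6 of the 9 and by 10.5% of all genes, and 7 of the 9 did not overlap, as did 41.2% of all genes; nothing is read from these counts.

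The share of Car4- cells with a Mest read after thinning was 79.6% and 82.3% at P7 and 19.5% and 10.1% at P21, so a smaller share of cells held reads at P21. The 2 ages differ in the labels that make up the class: the P7 mice had 162 and 114 Early and 44 and 2 Late cells, and the P21 mice 4 and 3 Early and 268 and 265 Late cells. The label Late Car4- capillaries did not by itself mark low Mest. In the female P7 mouse, 44 cells with that label had 542 CPM of Mest and 162 Early cells 1201 CPM, whereas 268 Late cells of the female P21 mouse had 52.3 CPM. Within the sequencing run shared by the male mice, CD31-sorted Car4- cells had 533 CPM of Mest at P7 (111 cells) and 30.2 CPM at P21 (184 cells), and Cdkn1c had 25.8 and 48.7 CPM. The remaining Car4- and Car4+ cells of the male P21 mouse came from other gates and runs. The pooled P7 and P21 cells thus also differ in their shares of gates and runs.

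Car4+ capillaries gave a comparison of the same ages that did not choose the genes, although the mice are the same. Mest was 1964 and 873 CPM at P7 and 241 and 259 CPM at P21, without overlap, a log2 difference of -2.51 (SE 0.53, edgeR adjusted p = 0.524, DESeq2 adjusted p = 0.000909). The P21 mice had 51.5 and 35.5 CPM of Mest in Car4- capillaries. In CD31-gate Car4+ cells, the male pair of 1 run had 1318 CPM at P7 (18 cells) and 220.3 CPM at P21 (44 cells). Of 8 members tested, 0 were called by edgeR, and Mest was the 1 with an unadjusted p under 0.05 and the 1 that DESeq2 called. Of all 12284 genes, 0.00814% were called by edgeR and 5.24% had an unadjusted edgeR p under 0.05, while DESeq2 called 254 genes. The mice did not overlap for 4 of 8 members and for 33.7% of all genes. Peg3 in Car4+ capillaries was 15.6 and 3.36 CPM at P7 and 19.5 and 22 CPM at P21, higher at P21 by 1.16 (SE 0.95, adjusted p = 0.947), opposite to the Car4- values; the difference between the classes was not tested. From P1 to P7 in Car4+ capillaries, 0 of 8 were called by edgeR and 1 by DESeq2, which called 259 of all genes. The mice did not overlap for 4 of 8 members and for 31.5% of all genes. By edgeR, 1 member had an unadjusted p under 0.05, with 0% of all genes called and 6.28% at that p. That gene was Peg3, at 48.6 and 165 CPM at P1 and 15.6 and 3.36 CPM at P7 (log2 difference -3.54, SE 1.04, edgeR adjusted p = 0.730, DESeq2 adjusted p = 0.00942). In the male P1 mouse 1 of the 17 cells gave 66.9% of the Peg3 reads, and without that mouse the log2 difference was -2.16 (adjusted p = 1).

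In proliferative EC, Grb10 was the member with the clearest course after E18.5. It was 585 and 417 CPM in E18.5 mice, 178 and 125 CPM in P1 mice and 100 and 133 CPM in P7 mice. The P1 and P7 mice overlapped with each other and both groups lay below E18.5. The log2 difference of P1 from E18.5 was -1.65 (SE 0.42, edgeR adjusted p = 0.375) and that of P7 from E18.5 -2.15 (SE 0.43, adjusted p = 0.238). DESeq2 gave adjusted p values of 0.0191 and 0.000404. Of 8 members, edgeR called 0 in each of these comparisons and DESeq2 called 1. Of 13102 genes, edgeR called 0% and 0.0458%, and DESeq2 called 506 and 200 genes. An unadjusted p under 0.05 was reached by 2 of 8 members at P1 and 1 of 8 at P7, beside 7.42% and 5.25% of all genes. Without overlap were 5 of 8 and 4 of 8 members, beside 36.7% and 40.3% of all genes. Over 15 alternatives the log2 difference of Grb10 at P7 from E18.5 lay between -2.34 and -1.74. It was called in 4 of them and not in the other 11. The 4 were DESeq2, the fit of all genes with at least 1 read, and the fits without either P1 mouse. The P1 mice are not part of that contrast. Without the female P1 mouse H19 was called at P1 against E18.5 (adjusted p = 0.0403). The pairs of 1 run were 589 and 178 CPM for the female E18.5 and P1 mice and 410 and 141 CPM for the male E18.5 and P7 mice. Peg3 in the same cells was 437 and 354 CPM at P1, against 178 and 157 CPM before birth (log2 difference 1.32, SE 0.51, adjusted p = 0.625). Between P1 and P7 in proliferative EC 0 of 8 members were called by either tool, with 0% of genes called, 0 members with an unadjusted p under 0.05 against 9.82% of all genes, and 1 of 8 without overlap against 38.1%.

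In venous EC Igf2 and H19 were high at P1 and near 0 at P7, a difference that passed or missed the threshold depending on the model. Igf2 was 641 and 96.7 CPM at P1 and 1.70 and 5.03 CPM at P7, and H19 623 and 67.4 CPM at P1 and 0.386 and 0 CPM at P7, without overlap. The log2 differences were -6.82 (SE 1.50, edgeR adjusted p = 1) and -10.22 (SE 1.35, edgeR adjusted p = 0.130). DESeq2 gave adjusted p values of 8.50e-07 and 2.96e-17. So 0 of 9 members were called by edgeR, where 0% of 12326 genes were, and 2 by DESeq2, which called 75 of these genes. An unadjusted p under 0.05 was reached by 2 of 9 members and 3.21% of genes, and 5 of 9 members and 35.3% of genes did not overlap. H19 was also called by edgeR in each of 6 fits that left out an E18.5, P1 or hyperoxia mouse, with adjusted p from 9.76e-06 to 0.00220, and in neither fit that left out a P7 mouse in normal air (0.129 and 0.184). In the female P1 mouse 1 of 17 venous cells held 96.0% of the H19 and 76.5% of the Igf2 reads. Without the cell with most reads, H19 was 26.7 and 53.0 CPM at P1 and 0 and 0 CPM at P7, and Igf2 160 and 84.1 CPM at P1 and 0 and 2.46 CPM at P7. Cells with at least 10 CPM of Igf2 were 33 of 67 at P1 and 3 of 44 at P7. From E18.5 to P1 in venous EC, 0 of 9 members were called by either tool and 1 had an unadjusted p under 0.05, with 0.0162% and 8.71% of all genes, and 3 of 9 did not overlap against 37.2% of all genes. The gene was Grb10, at 125 and 223 CPM at P1, against 594 and 329 CPM before birth (log2 difference -1.53, SE 0.59, adjusted p = 0.551).

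Hyperoxia at P7 was compared with normal air at P7 in 4 classes. In Car4- capillaries Mest, Cdkn1c, Igf2 and H19 were lower in both hyperoxia mice than in both mice in normal air, and Peg3 was higher, with 0 members past the edgeR threshold. Mest was 404 and 178 CPM under hyperoxia and 1118 and 526 CPM in normal air, a log2 difference of -1.54 (SE 0.48, edgeR adjusted p = 0.887). Cdkn1c was 7.10 and 14.8 CPM under hyperoxia and 42.4 and 26 CPM in normal air (log2 difference -1.67, SE 0.62). Igf2 was 0.514 and 0.287 CPM under hyperoxia and 26.2 and 10 CPM in normal air (-5.54, SE 1.64, DESeq2 adjusted p = 0.000599), and H19 15.3 and 7.63 CPM under hyperoxia and 77.4 and 54.6 CPM in normal air (-2.56, SE 1.01). The edgeR adjusted p of Cdkn1c, Igf2 and H19 was also 0.887. These 4 genes had an unadjusted p under 0.05, edgeR called 0 of 9 members and DESeq2 called 1 (Igf2). Of 14660 genes, edgeR gave that p to 5.52% and called 0.0136%, while DESeq2 called 180 genes. In all, 5 of 9 members did not overlap, as did 33.8% of all genes. The share of cells with a Mest read after thinning was 82.4% and 47.7% under hyperoxia and 79.6% and 82.3% in normal air. Without the female P7 mouse in normal air the Mest difference was -0.85. Peg3 stood at 877 and 727 CPM under hyperoxia and 609 and 332 CPM in normal air, a log2 difference of 0.73 (SE 0.40, adjusted p = 0.894), and Ndn at 130 and 137 CPM under hyperoxia lay inside its range in normal air (119 and 142 CPM).

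Across classes the members differed in direction under hyperoxia. Each of the 2 hyperoxia mice was paired with the normal-air mouse of its sex in Car4-, Car4+, proliferative and venous cells, which gives 8 pairs from 4 mice. Mest was lower under hyperoxia in 8 of 8 pairs, Plagl1 in 8 of 8 and Cdkn1c in 7 of 8, while Peg3 and Ndn were lower in 1 of 8 each. Igf2 and H19 were lower in 4 of 8 each and Grb10 in 5 of 8. One of the other H19 pairs, male venous cells, had 0 CPM on both sides. Some pairs were near the floor, such as Plagl1 in male Car4+ cells with 0.0336 against 1.94 CPM. H19 was higher under hyperoxia in both proliferative pairs (15.7 against 7.56 CPM and 119 against 39.8 CPM). The share of proliferative cells with at least 10 CPM of H19 was lower, at 4 of 66 against 11 of 89, so the higher level rests on few cells. In arterial EC I Cdkn1c was higher under hyperoxia in the male pair, at 1054 CPM (9 cells) against 265 CPM (4 cells), and lower in the female pair, at 54.9 CPM (15 cells) against 66.8 CPM (16 cells). These pairs share their mice and are not independent, and no test was made of them. The share of all genes lower in as many pairs was not counted, so nothing is read from the counts of pairs. In Car4+ capillaries Mest was 937 and 401 CPM under hyperoxia and 1964 and 873 CPM in normal air (log2 difference -1.29, SE 0.51, adjusted p = 0.731), and the ranges overlapped. Peg3 in Car4+ capillaries was 95.3 and 88.9 CPM under hyperoxia and 15.6 and 3.36 CPM in normal air (3.12, SE 1.02, edgeR adjusted p = 0.731, DESeq2 adjusted p = 0.0331). In the female hyperoxia mouse 1 of the 19 Car4+ cells gave 84.1% of the Peg3 reads. Of the 8 members tested in Car4+ capillaries 0 were called by edgeR and 1 by DESeq2, with 2 at an unadjusted edgeR p under 0.05. Of all 12284 genes, edgeR called 0% and gave that p to 6.16%, while DESeq2 called 268 genes. Without overlap were 3 of 8 members and 32.3% of all genes.

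In venous EC Cdkn1c was 8.97 and 0.0362 CPM under hyperoxia and 102 and 54.7 CPM in normal air (log2 difference -4.20, SE 1.43, adjusted p = 1). In normal air 1 of 21 cells of the female mouse gave 72.9% of the reads (29.4 CPM without it) and 1 of 23 of the male mouse 46.3% (32.7 CPM without it). Reads of Cdkn1c were found in 5 of 53 venous cells under hyperoxia and in 16 of 44 in normal air. Of 9 members 0 were called by edgeR or DESeq2 and 2 had an unadjusted p under 0.05 (Cdkn1c, and H19 with 0 reads under hyperoxia and 10 in normal air), with 0% of genes called, 2.69% at that p, and 5 of 9 members and 34.1% of genes without overlap. Without the female hyperoxia mouse edgeR called Cdkn1c (adjusted p = 0.0174), with a log2 difference of -10.77 that rests on 1 read in the male hyperoxia mouse. In proliferative EC 0 of 8 members were called by either tool and 0 had an unadjusted p under 0.05, beside 0% and 2.59% of all genes, and 2 of 8 members did not overlap against 33% of genes. Within the run of the male mice, Mest under hyperoxia and in normal air was 178 and 533 CPM in Car4-, 401 and 1318 CPM in Car4+, 164 and 329 CPM in proliferative and 235 and 486 CPM in venous cells.

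**Figure D4:**
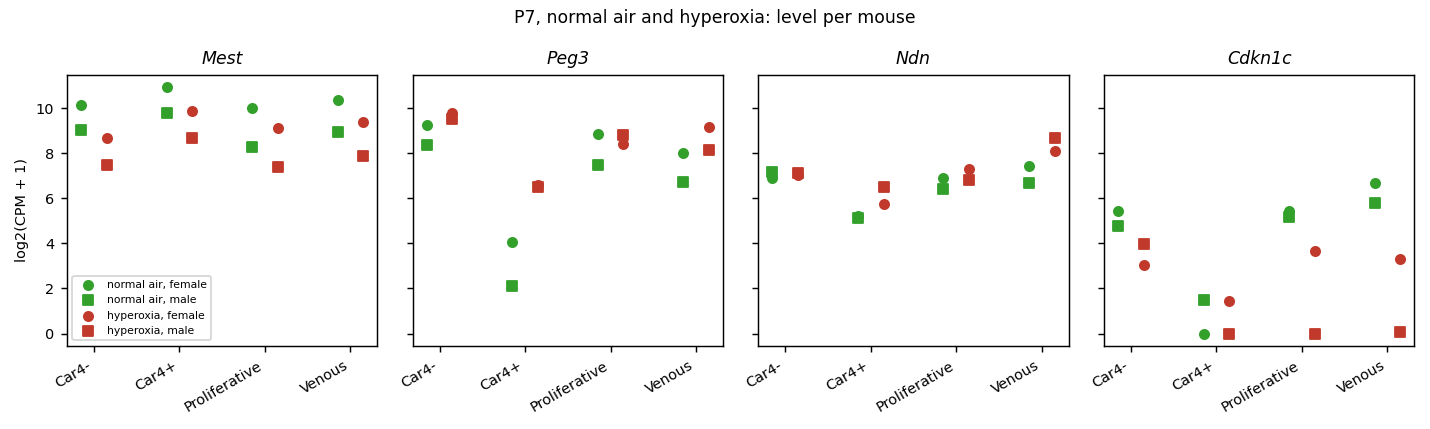
Level of Mest, Peg3, Ndn and Cdkn1c in 4 endothelial classes at P7 in normal air (green) and hyperoxia (red), one point per mouse on a log2(CPM + 1) scale, with circles for female and squares for male mice. For Mest each red symbol lies below the green symbol of the same shape in all 4 classes.

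Other genes around these were read from 5 lists. Of 41 further imprinted genes 36 were in the table, and 22 to 28 were tested in a comparison. None was called by edgeR in any of the 14 comparisons, and between 1 and 7 per comparison had an unadjusted p under 0.05, where 2.59% to 11.3% of all genes did. The 7 of 28 were in the comparison around birth (9.42% of all genes). In Car4- capillaries from P7 to P21, 20 of 28 were lower with a median log2 difference of -0.33, beside 0.06 for all genes. Neither did any receptor of IGF2 or binding protein of its messenger RNA (6 genes), any of 10 other genes of the postnatal growth programme, any of 10 genes that maintain imprints or any of 10 cycling genes pass the threshold. Igf2r, the imprinted receptor that clears IGF2, had a log2 difference of 1.66 (SE 0.43, adjusted p = 0.662) in Car4- capillaries under hyperoxia. Igf2bp1, a fetal binding protein of the Igf2 messenger, had -6.91 (SE 1.93, adjusted p = 0.597) in proliferative EC at P7 against E18.5. The 10 cycling genes were all lower at P21 than at P7 in Car4- capillaries (median -1.60, 0 called), as was Mest. All were higher in embryonic EC than in P1 Car4- capillaries (median 2.82, 0 called), as was Mest. Other comparisons went either way. Under hyperoxia in Car4+ capillaries 7 of 10 were lower, and so was Mest. At P21 against P7 in Car4+ capillaries 7 of 10 were higher (median 0.66), while Mest was lower (-2.51). In venous EC 9 of 10 were higher at P1 than at E18.5 (median 2.55), while Mest was lower (-0.59). Under hyperoxia in venous EC 9 of 10 were higher (median 1.36) and Mest was lower (-1.04). The part of the cycling genes in the levels of the imprinted genes was not tested.

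The genes whose levels ran most like each member were sought over 28 sums of mouse and class and 8816 genes, as Pearson's r of log2(CPM + 1). These were sums of normal-air mice with at least 8 cells, in embryonic, Car4-, Car4+, proliferative and venous EC. Arterial and lymphatic EC were left out, although lymphatic EC held 61.2% of the Igf2 and 50.4% of the H19 reads. The sums share mice, runs and depth, so these values are descriptions. The 10 members were left out of this search. Mest ran most like Hapln1 (r = 0.83), Dok4 (0.75) and Ttc3 (0.68), and Ndn like Marcksl1 (0.89), Cuedc2 (0.88) and Dchs1 (0.86). Peg3 ran most like Mtss1 (0.86), Traf4 (0.83) and Rbm17 (0.83), and Plagl1 like Fstl1 (0.86), Lhx6 (0.83) and Cd63-ps (0.83). Igf2 ran most like Slk (0.78), Mum1l1 (0.77) and P3h3 (0.77), and H19 like Tcof1 (0.75) and Egln3 (0.70). Cdkn1c ran most like Aplnr (0.89), the apelin receptor, Cox7a2l (0.89) and Tmem252 (0.87), and Grb10 like Plxnd1 (0.85), Npm1 (0.84) and Gchfr (0.84). Dlk1 and Meg3 are left out here because their reads are close to 0. Among the members themselves, Igf2 and H19 had r = 0.81, which for both was above the r with any other gene compared. Igf2 and Plagl1 had r = 0.73, Plagl1 and Cdkn1c 0.71, Igf2 and Cdkn1c 0.67, Ndn and Peg3 0.67 and Mest and Grb10 0.50, while Mest and Cdkn1c had 0.12.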

How the data were processed

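The authors deposited whole read counts per gene and cell from a plate-based Tn5 library, per the labels' protocols, with no normalization (the values are whole numbers and sum to different totals). No molecular identifiers are named. The submitters' processing notes name STAR 2.5.2b, HTSeq 0.10 and the build GRCh38, which is a human build; the annotation is not given in the sources used here. Mitochondrial, ribosomal protein and predicted (Gm) symbols are not in the table, so totals leave them out. Positions are from GENCODE M21.

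Reads were summed per mouse and class. A fit used groups in which both mice had at least 8 cells, and descriptions within a mouse used at least 5 cells. Sums were tested with edgeR 4.0.16 (TMM, filterByExpr, quasi-likelihood F test; R 4.3.3) with all usable groups of a class in 1 model and Benjamini-Hochberg adjustment over all genes tested. Nothing says that the mice of a group were separate litters, so p-values measure the spread between these mice. The script was tested on simulated data. Alternatives were DESeq2 1.42.0, RLE, a filter of 1 read, CD31-gate cells alone (2694 of 2931), limma 3.58.1 on log2(mean CPM + 1), sex as a term, cells with over 100 CPM of other-lineage markers left out (566 cells) and each mouse left out. Sums without the cell with most reads were added with the values in view.

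The members, lists and tests were chosen with earlier results of these data known. The 10 members are named in every comparison. A gene of a list is named where called; as none was, Igf2r and Igf2bp1 were chosen after their values were seen. The 3 genes most like a member were named, over genes with a mean of at least 10 CPM; 1 of those for H19 is not reported here.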

Additional observations from a re-analysis of the deposited data

Results flagged for a closer look

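Some members lay in opposite directions in 2 classes under the same contrast, in that both mice of one group were above both mice of the other in the first class and below them in the second. The difference between the classes was not tested in any of these. Values are log2 ratios of the mean CPM of the 2 mice, with 1 CPM added to each mean. Peg3 at P21 against P7 was -2.40 in Car4- capillaries (88.2 against 471 CPM) and 1.05 in Car4+ capillaries (20.7 against 9.50 CPM). Plagl1 at P1 against E18.5 was 0.53 in proliferative EC (89.2 against 61.5 CPM) and -1.65 in arterial EC I (17.9 against 58.6 CPM). H19 at P7 against P1 was 1.55 in Car4- capillaries (66.0 against 21.9 CPM) and -8.18 in venous EC (0.193 against 345 CPM), where 1 cell held 96.0% of the reads of the female P1 mouse.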

How the results depend on the processing

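With 2 mice per group the number of members called moved with the model. Only log2 differences of members with an unadjusted p under 0.05 in the edgeR fit were followed, and none of these changed sign. That choice leaves out the differences near 0, which could change sign most easily, so it does not show that signs are stable. With DESeq2 in place of edgeR, 1 member instead of 0 was called in Car4+ capillaries (P21 against P7, P7 against P1 and hyperoxia), in Car4- capillaries under hyperoxia and in proliferative EC (P1 and P7 against E18.5), 2 in venous EC at P7 against P1, and 6 instead of 3 in Car4- capillaries at P21 against P7. DESeq2 also called more of all genes. It called 254 to 268 of 12284 in those Car4+ comparisons and 180 of 14660 in Car4- capillaries under hyperoxia. In proliferative EC it called 506 and 200 of 13102. It called 75 of 12326 in venous EC at P7 against P1 and 692 of 14660 in Car4- capillaries at P21 against P7. With all genes of at least 1 read, 1 was called in Car4+ capillaries at P21 against P7, proliferative EC at P7 against E18.5 and venous EC under hyperoxia, and 2 in venous EC at P7 against P1. With limma 1 member was called in Car4- capillaries at P21 against P7. Leaving out 1 mouse gave 0 to 4 members in Car4- capillaries at P21 against P7 (0 without the female P7 or the male P21 mouse), 0 to 1 in proliferative EC at P1 and P7 against E18.5 and in venous EC under hyperoxia, and 0 to 2 in venous EC at P7 against P1. The leave-out fits with 1 mouse in a group assume that it varies like the other groups. The other counts stayed within 1.5 times the value of the edgeR fit.

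Mest under hyperoxia in Car4- capillaries ranged from -2.24 to -0.85 over 15 alternatives, with adjusted p from 0.0877 to 1. Without the female P7 mouse it was -0.85, and without the female hyperoxia mouse -2.24. H19 in venous EC at P7 against P1 was called in 8 of 15 alternatives. The mean H19 level of venous EC at P1 was 345 CPM, and 39.8 CPM without the cell with most reads in each mouse, and that of Igf2 369 and 122 CPM. Leaving out cells with reads of other lineages left too few proliferative cells at P1 for a fit. The mice share no replicate numbers across groups. The same mouse could not be paired across groups because each mouse name belongs to 1 group. Sex, which the groups share, was fitted as a term instead: 2 members were called in Car4- capillaries at P21 against P7 and 0 in the other 13 comparisons. Where a gene was read in few cells, its level rests on those cells, and a level made of 1 or a few reads is limited by the depth.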

Other observations

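Mest was higher in the female than in the male mouse of the same group in 4 of 4 groups in Car4- capillaries, in 4 of 4 in proliferative EC, in 4 of 4 in venous EC and in 3 of 4 in Car4+ capillaries. In a model with sex as a term, the male minus female log2 difference was -0.79 in Car4- capillaries (SE 0.24, edgeR adjusted p = 0.842), -1.08 in proliferative EC (SE 0.33, adjusted p = 0.936) , -1.17 in venous EC (SE 0.30, adjusted p = 1) and -0.53 in Car4+ capillaries (SE 0.32, adjusted p = 1.00). Each group has 1 mouse of each sex, and the CD31-gate cells of the 2 mice come from different sequencing runs in every group, so sex, mouse and run cannot be told apart. Ndn in Car4- capillaries was higher in the female mouse in 2 of 4 groups.

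The Igf2 receptor and binding proteins in Car4- capillaries under hyperoxia had a median log2 difference of 1.14 over 6 genes, with 4 higher and 2 lower, beside -0.01 for all genes, and 0 of them were called. Igf2r had log2 differences of 1.66 in Car4- capillaries (edgeR adjusted p = 0.662), 2.03 in Car4+ capillaries (0.731), 1.53 in proliferative EC (1) and 1.54 in venous EC (1) under hyperoxia, in the same 4 mice.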
